A study of Mus musculus with 4 samples.

Results

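The genes described here encode potassium channel subunits, both those that form the pore and the accessory subunits that bind it. They were taken by name from a deposited table of 43346 genes, as every entry whose symbol is Kcn followed by letters and a number, which gave 92 genes. Of these, 66 had 20 or more gene reads over the 4 hearts and 26 had fewer, 7 of them with no read at all (Kcna3, Kcne4, Kcnf1, Kcnj11, Kcnj13, Kcns2 and Kcnv1). The rule used names and total reads, not the difference between the groups, though it was chosen with earlier results of these data known. By family the 92 comprised 30 voltage-gated subunits, 10 silent voltage-gated subunits that form no channel on their own, 15 inward rectifiers, 15 accessory subunits, 14 tandem pore domain subunits and 8 channels opened by calcium or sodium.

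Potassium channels carry the outward current that ends each cardiac action potential and hold the resting membrane potential between beats. In mouse ventricle the fast transient outward current and the slowly inactivating delayed rectifiers do most of the repolarising, inward rectifiers set the resting potential, and atrial cells add a channel that opens when acetylcholine released by the vagus acts on muscarinic receptors. Accessory subunits alter how many channels reach the membrane and how fast they open and close.

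RNA from whole hearts of C57BL/6 mice aged 6 weeks was sequenced. PRMT1-cKO mice (2 hearts) had a deficiency of the protein arginine methyltransferase PRMT1 specific to cardiomyocytes, and WT mice (2 hearts) served as controls. PRMT1 places asymmetric dimethyl marks on arginines of many proteins, RNA-binding proteins among them. The labels state an interest in mRNA levels and alternative splicing. The sources used here do not give the Cre line that restricted the deletion. Each library is taken as 1 heart. The p-values set a difference against the spread between 2 hearts per group, which is estimated for each gene partly from all genes tested.

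The libraries held 18291730 and 18674587 gene reads in PRMT1-cKO hearts, against 25509854 and 21701967 in WT hearts. Cardiomyocyte markers were abundant in every library, with a summed level of 2247 and 2651 CPM (counts scaled to library size by TMM) in PRMT1-cKO hearts and 4434 and 4521 CPM in WT hearts, and 5 of 7 of these markers were lower in PRMT1-cKO. Fibroblast markers summed to 241 and 157 CPM in PRMT1-cKO hearts and 48.9 and 62.8 CPM in WT hearts, with 5 of 5 higher. Endothelial markers summed to 141 and 150 CPM in PRMT1-cKO hearts and 154 and 159 CPM in WT hearts, with 1 of 5 higher and 1 of 5 lower, and conduction markers to 4.27 and 3.01 CPM in PRMT1-cKO hearts and 5.14 and 4.21 CPM in WT hearts, with no exon read in Shox2 and Isl1. The mitochondrial ribosomal RNA gene mt-Rnr2 took 52.8 and 51.2% of gene reads in PRMT1-cKO hearts and 64.9 and 65.8% in WT hearts. Prmt1 itself had 33 and 44 gene reads in PRMT1-cKO hearts and 33 and 18 in WT hearts, with 0 exon reads in each, and the edgeR test gave a log2 difference of 0.44 ± 0.34 (SE) with an adjusted p of 0.394. Those reads lie outside annotated exons and therefore do not check the deletion. In bulk tissue, fewer cells of a type and less RNA per cell cannot be told apart.

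A gene read in this table is an exon read or an intron read, and for all 43346 genes the first number is the sum of the other two. All but 29 of 2605955 exon reads crossed an exon junction, so exon reads stand for spliced RNA, and reads lying within 1 exon are nearly absent. The potassium channel genes are long and thinly covered by exon reads. Together they collected 93760 gene reads, of which 817 were exon reads, a share of 0.871%, against 9.76% over all genes with an annotated exon. Exon reads were absent from 37 of the 66 genes, and 8 genes had 20 or more. The 3 genes with a single exon (Kcna3, Kcnf1 and Kcnj11) had no read, which says nothing about their RNA. For most subunits the comparison therefore rests on reads outside annotated exons. Whether strand was used in counting is not stated, and 33 of the 66 genes overlap another gene annotated in GENCODE M21, whose reads cannot be told apart.

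More potassium channel subunits were lower than higher in PRMT1-cKO hearts, and a few rose. The 92 genes summed to 911 and 969 CPM of gene reads in PRMT1-cKO hearts, against 1382 and 1217 CPM in WT hearts. Of the 49 subunits with enough gene reads to test, 18 passed an adjusted p of 0.05 in edgeR's quasi-likelihood test, 14 lower and 4 higher in PRMT1-cKO. That is 36.7%, where 22.7% of all 13869 genes tested passed. Lower calls made up 14 of 49 subunits against 11.2% of all genes, and higher calls 4 of 49 against 11.5%. The median log2 difference was -0.25 over the 49 subunits and 0.01 over all genes tested. The fall was more than 2-fold in 10 of the 14 and more than 4-fold in 6, and the rise was more than 2-fold in 3 of the 4. A further 17 measured subunits were not tested. Over all untested subunits, those with fewer than 20 gene reads included, the median gene span was 12.7 kb, against 98.2 kb for the 49 tested. Among tested subunits that overlap no other gene, 6 of 20 were lower and 0 higher in edgeR, with a median of -0.68, and among those that overlap one, 8 of 29 were lower and 4 higher, with a median of -0.15.

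**Figure D1:**
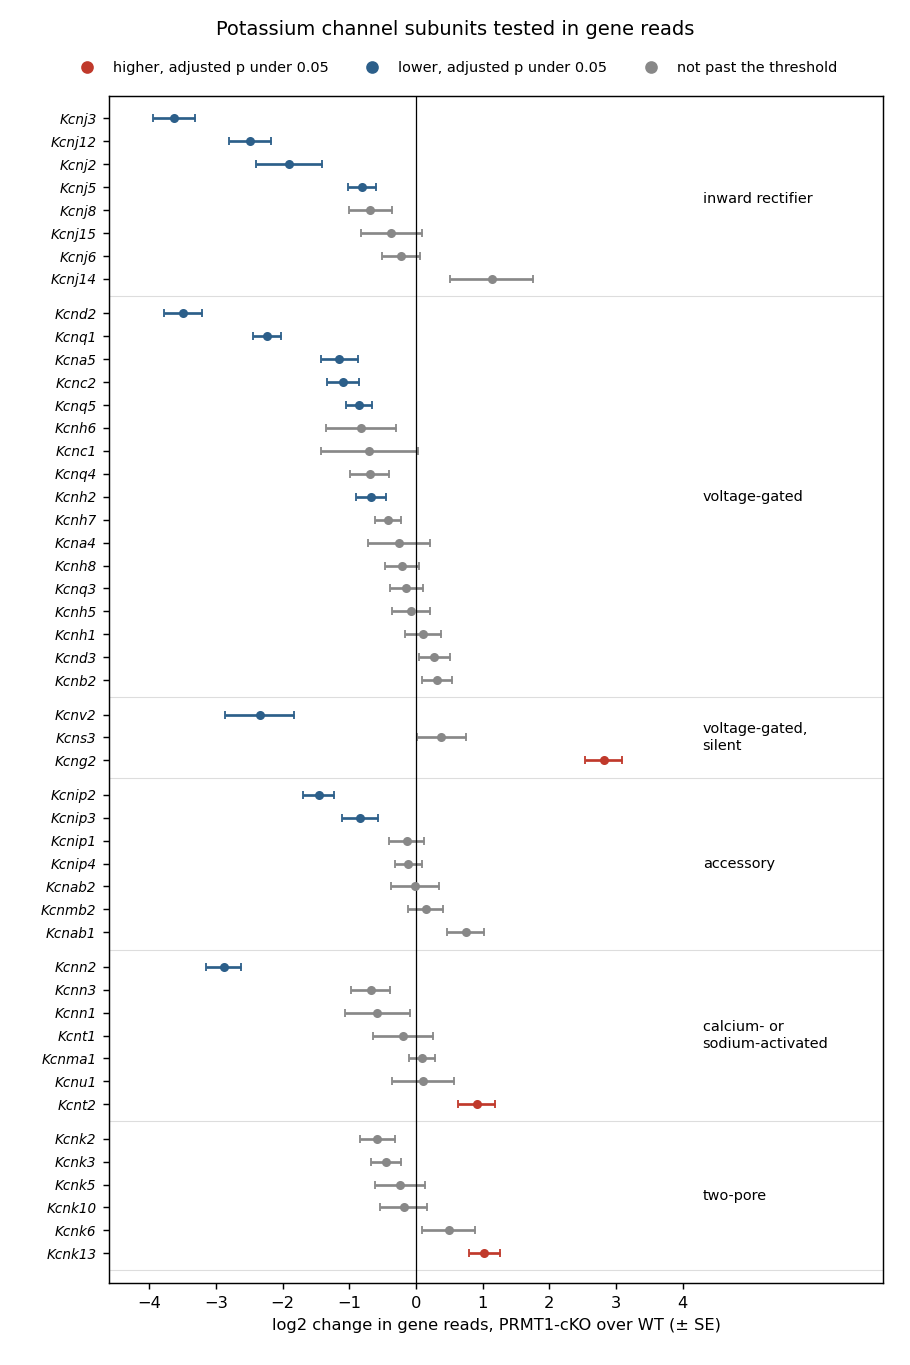
The log2 difference in gene reads, PRMT1-cKO over WT, with its standard error is plotted for 48 of the 49 subunits tested, grouped by family. Points left of the line at 0 are lower in PRMT1-cKO; the 14 blue points passed as lower, the 3 red points as higher, and the 31 grey points did not pass.

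The plot groups the subunits by family. Over all genes tested, 11.2% fell and 11.5% rose. Families with 1 or 2 calls are too small to be set apart from these shares. Among inward rectifiers 4 of 8 fell and 0 rose (edgeR), with a median log2 difference of -0.75. Of 18 voltage-gated subunits 6 fell and 1 rose, with a median of -0.55, and of 3 silent subunits 1 fell and 1 rose. Accessory subunits had 2 falls and 0 rises among 7, calcium- or sodium-activated channels 1 fall and 1 rise among 7, and tandem pore domain channels 0 falls and 1 rise among 6. A list of 20 subunits with textbook roles in cardiac repolarisation held 18 that could be tested. Of these, 11 fell and 1 rose, with a median of -0.98. The list was chosen with earlier results of these data known, so its counts are not independent support.

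The acetylcholine-activated channel of atrial cells is built from the products of Kcnj3 and Kcnj5, and both were lower in PRMT1-cKO. Kcnj3 (ENSMUSG00000026824, chromosome 2, 55435970 to 55598145 on GRCm38, plus strand) had 243 and 505 gene reads in PRMT1-cKO hearts, against 5591 and 2748 in WT hearts. This equals 16.5 ± 6.50 CPM in PRMT1-cKO and 204 ± 61.5 CPM in WT (SD, n = 2 each), and no PRMT1-cKO heart came near either WT heart. Kcnj3 fell 12.3-fold, a log2 difference of -3.62 ± 0.32 (SE) with an edgeR adjusted p of 1.04e-07. It had 1 exon read in each of the 4 hearts, so the fall is one of reads outside exons. Kcnj5 (chromosome 9, 32314783 to 32344237, minus strand) had 117 and 136 gene reads in PRMT1-cKO hearts, against 254 and 149 in WT hearts. Scaled for depth, these were 5.74 and 5.69 CPM in PRMT1-cKO and 11.3 and 8.71 CPM in WT, and the groups did not overlap. The fall of Kcnj5 was 1.75-fold, with a log2 difference of -0.81 ± 0.21 and an edgeR adjusted p of 0.00759, but without WT replicate 1 the adjusted p was 0.214. Its exon reads, 35 and 21 in PRMT1-cKO hearts and 35 and 38 in WT hearts, overlapped and did not pass (log2 -0.65 ± 0.33, edgeR adjusted p 0.142).

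Markers of atrial muscle moved in the same direction as this pair. The 4 atrial markers summed to 22.3 and 19.7 CPM in PRMT1-cKO hearts, against 114 and 114 CPM in WT hearts, with 3 of 4 lower and none at 0. Their part in the fall of Kcnj3 and Kcnj5 was not tested.

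Because the pair that forms this channel moved together, the RefSeq promoter windows of Kcnj3 and Kcnj5 are shown, from 250 bases before to 50 bases after the annotated start, on the coding strand and 5′ to 3′ (GRCm38.p6). Kcnj3 lies at chr2:55435720-55436019 on the plus strand and Kcnj5 at chr9:32344295-32344594 on the minus strand, and capitals mark CG dinucleotides.
Kcnj3: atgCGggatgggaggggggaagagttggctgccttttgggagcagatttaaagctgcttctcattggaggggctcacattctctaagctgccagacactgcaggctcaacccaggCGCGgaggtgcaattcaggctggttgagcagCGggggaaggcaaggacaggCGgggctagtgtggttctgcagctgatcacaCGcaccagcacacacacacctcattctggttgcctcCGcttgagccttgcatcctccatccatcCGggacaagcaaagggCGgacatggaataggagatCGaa
Kcnj5: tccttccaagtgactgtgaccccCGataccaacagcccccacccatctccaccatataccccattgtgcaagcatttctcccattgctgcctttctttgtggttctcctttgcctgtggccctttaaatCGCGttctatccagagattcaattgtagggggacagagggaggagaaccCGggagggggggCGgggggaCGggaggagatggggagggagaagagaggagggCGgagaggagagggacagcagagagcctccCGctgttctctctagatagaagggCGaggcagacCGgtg
Each window holds 10 CG dinucleotides, and their GC content is 57.7% for Kcnj3 and 58.3% for Kcnj5.

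The classical inward rectifiers Kcnj2 and Kcnj12, which set the resting potential of ventricular muscle, were lower as well, at small read numbers. Kcnj12 (chromosome 11, 61022564 to 61071131, plus strand) had 12 and 31 gene reads in PRMT1-cKO hearts, against 130 and 86 in WT hearts. None of these was an exon read, so the comparison is one of reads outside exons. Kcnj12 fell 5.60-fold, a log2 difference of -2.48 ± 0.31 with an edgeR adjusted p of 9.38e-06, and it overlaps no other gene. Without PRMT1-cKO replicate 2, the higher of its group, the log2 difference was -3.21. Kcnj2 (chromosome 11, 111066164 to 111076821, plus strand) had 12 and 4 gene reads in PRMT1-cKO hearts and 31 and 24 in WT hearts. Of these, 9 and 1 were exon reads in PRMT1-cKO hearts and 14 and 12 in WT hearts. The log2 difference of Kcnj2 was -1.91 ± 0.50 with an edgeR adjusted p of 0.00819, and it moved with the heart left out: -3.04 without PRMT1-cKO replicate 1 and -1.25, with an adjusted p of 0.0681, without PRMT1-cKO replicate 2.

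The pore of the vascular ATP-sensitive channel, encoded by Kcnj8, did not pass in gene reads. Kcnj8 had 47 and 29 gene reads in PRMT1-cKO hearts, against 58 and 52 in WT hearts, a log2 difference of -0.68 ± 0.32 with an edgeR adjusted p of 0.139; leaving out PRMT1-cKO replicate 1 gave -1.23 and 0.00820. Its partner Abcc9, the sulfonylurea receptor of the same channel, fell. Abcc9 had 281 and 414 gene reads in PRMT1-cKO hearts, against 1241 and 826 in WT hearts. It averaged 15.6 ± 2.49 CPM in PRMT1-cKO and 51.6 ± 4.72 CPM in WT (SD, n = 2 each), a log2 difference of -1.73 ± 0.22 (edgeR adjusted p 7.78e-06). The 6 mural cell markers, which include Kcnj8 and Abcc9, summed to 114 and 108 CPM in PRMT1-cKO hearts and 167 and 189 CPM in WT hearts. In gene reads 1 of these markers was higher and 1 lower (edgeR), and the lower one was Abcc9 itself. In exon reads 4 of 6 were lower and 0 higher, where 18.7% of all genes tested were lower. In intron reads 4 of 6 were lower and 1 higher, where 11% of all genes tested were lower. Cardiomyocyte markers, given above, were lower too. The part of mural cells or of cardiomyocytes in the fall of Abcc9 was not tested. The other ATP-sensitive pore gene of the heart, Kcnj11, has 1 exon and is listed at 0.

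**Figure D2:**
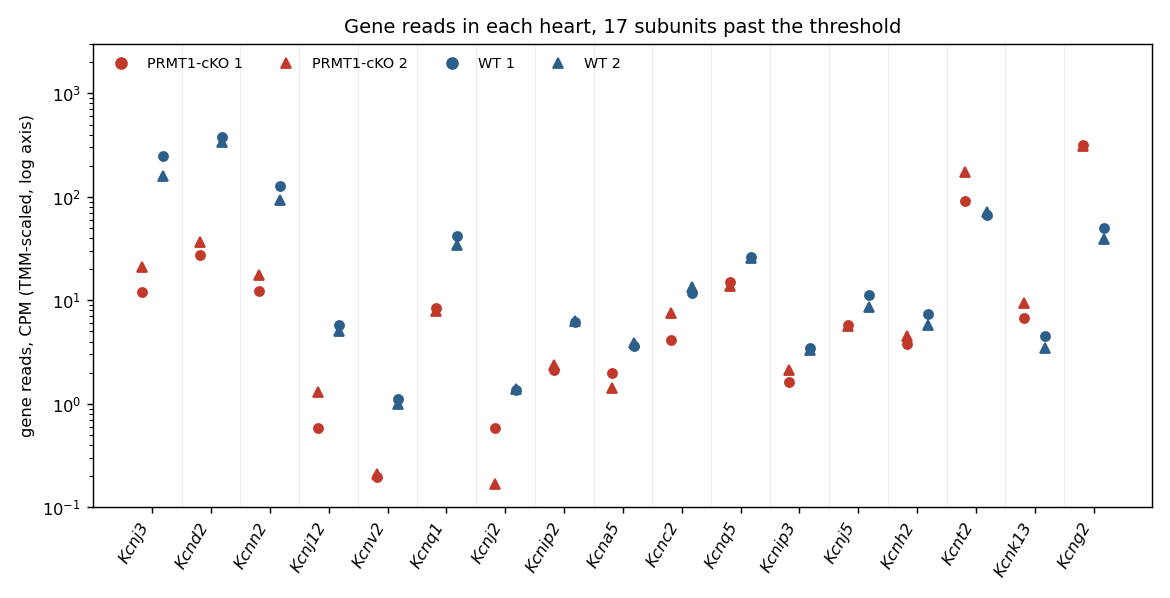
Gene reads as TMM-scaled CPM, on a log axis, are plotted for each heart and 17 of the 18 subunits that passed the test, PRMT1-cKO hearts in red to the left of WT hearts in blue, ordered by log2 difference. Kcnj3, Kcnd2 and Kcnn2 show the widest gaps on the lower side and Kcng2 the widest on the higher side.

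The fast transient outward current of mouse ventricle is carried by channels of the Kcnd2 pore with the calcium-binding subunit Kcnip2, and both fell. Kcnd2 (ENSMUSG00000060882, chromosome 6, 21215503 to 21729805, plus strand) had 554 and 885 gene reads in PRMT1-cKO hearts, against 8631 and 5826 in WT hearts. Its level was 32.1 ± 6.95 CPM in PRMT1-cKO and 361 ± 29.4 CPM in WT (SD, n = 2 each), far beyond the spread between hearts. The log2 difference of Kcnd2 was -3.49 ± 0.29 with an edgeR adjusted p of 5.76e-08. Kcnip2 (ENSMUSG00000025221, chromosome 19, 45791839 to 45816061, minus strand), which overlaps no other gene, had 43 and 57 gene reads in PRMT1-cKO hearts, against 138 and 108 in WT hearts. The 2 hearts of each group were close, at 2.25 ± 0.193 CPM in PRMT1-cKO and 6.21 ± 0.143 CPM in WT. Kcnip2 fell 2.75-fold (log2 -1.46 ± 0.24, edgeR adjusted p 1.29e-04).

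The other transient outward pores did not pass. Kcnd3, a close relative of Kcnd2 that can share its channels, had 855 and 1477 gene reads in PRMT1-cKO hearts, against 1078 and 646 in WT hearts. The groups overlapped, and the log2 difference was 0.28 ± 0.23 with an edgeR adjusted p of 0.449; without PRMT1-cKO replicate 2 it was -0.051. All of its reads were intron reads. Kcna4, the pore of the slow transient outward current, had 11 and 16 gene reads in PRMT1-cKO hearts and 19 and 10 in WT hearts, and any difference was not detectable at this depth (log2 -0.25 ± 0.46, edgeR adjusted p 0.763).

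The promoter windows of Kcnd2 and Kcnip2 are shown in the same way, since pore and accessory subunit fell together. The Kcnd2 window is chr6:21215096-21215395 on the plus strand and the Kcnip2 window chr19:45816014-45816313 on the minus strand (RefSeq, GRCm38.p6), with CG dinucleotides in capitals.
Kcnd2: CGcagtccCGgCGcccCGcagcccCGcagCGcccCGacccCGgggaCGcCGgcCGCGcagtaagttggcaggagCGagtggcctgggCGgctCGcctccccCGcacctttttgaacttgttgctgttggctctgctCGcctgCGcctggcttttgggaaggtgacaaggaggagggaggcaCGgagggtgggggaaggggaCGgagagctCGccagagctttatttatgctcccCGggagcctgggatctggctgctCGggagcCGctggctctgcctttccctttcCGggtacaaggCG
Kcnip2: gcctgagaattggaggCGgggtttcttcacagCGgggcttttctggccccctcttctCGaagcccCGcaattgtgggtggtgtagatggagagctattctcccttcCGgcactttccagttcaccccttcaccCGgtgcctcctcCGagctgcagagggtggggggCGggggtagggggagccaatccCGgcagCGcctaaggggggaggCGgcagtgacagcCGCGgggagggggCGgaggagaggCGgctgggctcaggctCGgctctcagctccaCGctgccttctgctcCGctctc
They hold 26 CG dinucleotides for Kcnd2 and 18 for Kcnip2, at a GC content of 68.7 and 67.0%, both above the median of 7 CG dinucleotides and 52.7% GC over 32851 RefSeq promoter windows of the same length.

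The pores of both classical delayed rectifiers fell. Kcnq1 (ENSMUSG00000009545, chromosome 7, 143106362 to 143427042, plus strand), the pore of the slow delayed rectifier, had 170 and 189 gene reads in PRMT1-cKO hearts, against 954 and 584 in WT hearts. That is 8.12 ± 0.310 CPM in PRMT1-cKO and 38.2 ± 5.73 CPM in WT (SD, n = 2 each), and Kcnq1 fell 4.71-fold (log2 -2.23 ± 0.21, edgeR adjusted p 2.63e-07). The antisense gene Kcnq1ot1 inside it is listed at 0 in all 4 hearts. As strand use in counting is not stated, this 0 does not tell whether its RNA was absent or was counted in Kcnq1. Kcne1, the accessory subunit that slows this channel, had 13 and 4 gene reads in PRMT1-cKO hearts and 5 and 1 in WT hearts, too few to test. Kcnh2, the pore of the rapid delayed rectifier, had 77 and 107 gene reads in PRMT1-cKO hearts, against 167 and 99 in WT hearts, or 3.78 and 4.48 CPM in PRMT1-cKO against 7.40 and 5.79 CPM in WT. The log2 difference of Kcnh2 was -0.68 ± 0.22 with an edgeR adjusted p of 0.0343, with 0.0661 when PRMT1-cKO replicate 1 was left out, 0.405 without WT replicate 1 and 0.144 in DESeq2.

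Kcna5, the pore of a slowly inactivating current of mouse ventricle, was lower. It had 40 and 34 gene reads in PRMT1-cKO hearts, against 82 and 66 in WT hearts, none of them exon reads. It fell 2.22-fold (log2 -1.15 ± 0.28, edgeR adjusted p 0.00440), over a gene model that the table stretches across the neighbouring Kcna1.

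Silent subunits change the behaviour of the voltage-gated pores they join, and the 2 that passed went opposite ways. Kcnv2, the one that fell, had fewer than 10 gene reads in each PRMT1-cKO heart. It passed the read filter through WT hearts alone, and was not tested under the stricter filter. Kcng2 (ENSMUSG00000059852, chromosome 18, 80294546 to 80364254, minus strand) had 6519 and 7337 gene reads in PRMT1-cKO hearts, against 1136 and 662 in WT hearts. At 313 ± 9.25 CPM in PRMT1-cKO and 44.5 ± 8.21 CPM in WT (SD, n = 2 each), it was the subunit with the most gene reads in both PRMT1-cKO libraries. Kcng2 rose 7.03-fold, a log2 difference of 2.81 ± 0.27 with an edgeR adjusted p of 3.67e-07. Its few exon reads ran the other way, 2 and 1 in PRMT1-cKO hearts and 8 and 8 in WT hearts. They fell below the read filter for exon reads; when no filter was applied, the edgeR log2 difference in exon reads was -2.58 with an adjusted p of 0.0326. The overlapping genes listed in the table had at most 46 reads in any heart. Kcnv2 (chromosome 19, 27322588 to 27337179, plus strand) had 4 and 5 gene reads in PRMT1-cKO hearts, against 25 and 17 in WT hearts (log2 -2.34 ± 0.52, edgeR adjusted p 0.00232), and the adjusted p was 0.0803 without WT replicate 1.

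Kcnc2 and Kcnq5, pores described mainly in neurons, were lower. Kcnc2, a pore of fast-firing neurons, had 85 and 179 gene reads in PRMT1-cKO hearts, against 264 and 229 in WT hearts (log2 -1.09 ± 0.24, edgeR adjusted p 0.00207). Kcnq5, a pore of the neuronal M current, had 304 and 328 in PRMT1-cKO hearts, against 587 and 439 in WT hearts (log2 -0.85 ± 0.19, edgeR adjusted p 0.00271, and 0.0577 without WT replicate 1). Neither had an exon read. Kcnc1, a relative of Kcnc2, had 2 and 10 in PRMT1-cKO hearts and 4 and 13 in WT hearts, which overlapped (log2 -0.70 ± 0.73, edgeR adjusted p 0.560, and 0.56 on the log2 scale without WT replicate 2). Kcnip3, a calcium-binding relative of Kcnip2 that is also a transcriptional repressor, had 33 and 51 in PRMT1-cKO hearts and 78 and 56 in WT hearts. Its log2 difference was -0.83 ± 0.27 with an edgeR adjusted p of 0.0328, but leaving out PRMT1-cKO replicate 1 gave 0.103, and it was 0.172 without WT replicate 1, 0.0851 without WT replicate 2 and 0.152 in DESeq2. The 5 nerve and Schwann cell markers summed to 2.60 and 2.01 CPM in PRMT1-cKO hearts and 4.12 and 4.09 CPM in WT hearts, with 1 of the 2 tested lower, and with no exon read in Th and Dbh; their part in these falls was not tested. By contrast Kcnip1, another member of the Kcnip family and one of the best covered subunits, had 4492 and 3815 gene reads in PRMT1-cKO hearts, against 4429 and 3792 in WT hearts, all of them intron reads. Its groups overlapped after scaling, and the log2 difference was -0.14 ± 0.26 (edgeR adjusted p 0.773).

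The small-conductance calcium-activated channel gene Kcnn2, whose current shortens the atrial action potential, fell steeply. Kcnn2 (ENSMUSG00000054477, chromosome 18, 45268860 to 45686024, plus strand) had 248 and 420 gene reads in PRMT1-cKO hearts, against 2863 and 1587 in WT hearts. It averaged 14.9 ± 3.81 CPM in PRMT1-cKO and 110 ± 24.1 CPM in WT (SD, n = 2 each), and it fell 7.37-fold (log2 -2.88 ± 0.26, edgeR adjusted p 1.63e-07). An antisense gene within it, A330093E20Rik, had 22 and 44 reads in PRMT1-cKO hearts and 55 and 53 in WT hearts, fewer than Kcnn2 in every heart. Exon reads of Kcnn2 came to 0 and 0 in PRMT1-cKO hearts and 2 and 0 in WT hearts. The atrial markers given above moved the same way, and their part in the fall of Kcnn2 was not tested.

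The sodium-activated channel gene Kcnt2 had 1842 and 4115 gene reads in PRMT1-cKO hearts, against 1521 and 1232 in WT hearts. PRMT1-cKO replicate 2 stood apart, with 172 CPM beside 90.4 CPM in the other PRMT1-cKO heart and 67.4 and 72.0 CPM in WT hearts. The log2 difference of 0.91 ± 0.28 passed with an edgeR adjusted p of 0.0209, and did not pass without PRMT1-cKO replicate 2 (log2 0.35, adjusted p 0.266), without WT replicate 1 (0.233) or without WT replicate 2 (0.152). The large-conductance channel gene Kcnma1 had 346 and 468 gene reads in PRMT1-cKO hearts and 384 and 295 in WT hearts and did not pass (log2 0.09 ± 0.19, edgeR adjusted p 0.788).

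Of the tandem pore domain channels, which leak potassium at rest, Kcnk13 rose. It had 139 and 224 gene reads in PRMT1-cKO hearts, against 101 and 59 in WT hearts, and no exon read. The rise was 2.03-fold (log2 1.02 ± 0.23, edgeR adjusted p 0.00274), and the adjusted p was 0.0631 without WT replicate 2. Kcnk13 is known in mouse as the leak channel of microglia, the macrophages of the brain, and leukocyte markers were higher too: the 4 in the table summed to 56.4 and 43.2 CPM in PRMT1-cKO hearts and 18.6 and 23.3 CPM in WT hearts, with 4 of 4 higher and no exon read in Csf1r. Their part in the rise of Kcnk13 was not tested. Kcnk3, an acid-sensitive leak channel of atrial and vascular muscle, had 218 and 363 gene reads in PRMT1-cKO hearts, against 464 and 251 in WT hearts, and did not pass (log2 -0.45 ± 0.22, edgeR adjusted p 0.167). Leaving out PRMT1-cKO replicate 2 gave a log2 difference of -0.75 with an adjusted p of 0.00482.

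Exon reads gave the comparison for spliced RNA, in the 8 subunits that had enough of them. Of these, 5 fell and 0 rose in edgeR, with 6 of 8 at an unadjusted p under 0.05 and 1 fall and 0 rises in DESeq2. The share of 62.5% compares with 36.2% of all 4756 genes tested in exon reads, and 18.7% for lower calls alone. The median log2 difference was -1.78, against 0.00 over all genes. Kcnq1, Kcnd2, Kcnip2, Kcnk3 and Kcnj2 had fewer than 10 exon reads in each PRMT1-cKO heart and passed the read filter through WT hearts alone. The counts, share and median rest partly on genes kept by the group where they are high, and do not by themselves show a direction. Kcnq1 had 8 and 0 exon reads in PRMT1-cKO hearts, against 62 and 56 in WT hearts, and Kcnd2 had 6 and 1 in PRMT1-cKO hearts, against 37 and 39 in WT hearts. In both genes each PRMT1-cKO heart lay far below each WT heart. The log2 difference of Kcnq1 in exon reads was -4.10 ± 0.54, at an adjusted p of 2.12e-05 in edgeR. It was -8.93 when PRMT1-cKO replicate 1 was left out and -3.19 when PRMT1-cKO replicate 2 was. That of Kcnd2 was -3.66 ± 0.53, at an adjusted p of 5.18e-05 in edgeR, and moved to -5.21 or -2.97 when the first or the other PRMT1-cKO heart was left out. In DESeq2 the fall of Kcnq1 had an adjusted p of 0.0721, and Kcnd2 was the 1 subunit that passed.

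The 3 other falls in exon reads rested on fewer reads or on 1 heart. Kcnip2 had 4 and 4 exon reads in PRMT1-cKO hearts, against 13 and 15 in WT hearts (log2 -2.03 ± 0.56, edgeR adjusted p 0.00939), and did not pass when any 1 heart was left out: 0.0845 without PRMT1-cKO replicate 1, 0.0545 without PRMT1-cKO replicate 2, 0.106 without WT replicate 1 and 0.242 without WT replicate 2. Kcnk3 had 8 and 4 in PRMT1-cKO hearts, against 18 and 21 in WT hearts (log2 -1.94 ± 0.50, edgeR adjusted p 0.00611, and 0.117 without WT replicate 2). Kcnh2 had 16 and 30 in PRMT1-cKO hearts, against 44 and 37 in WT hearts (log2 -1.05 ± 0.37, edgeR adjusted p 0.0342). Without PRMT1-cKO replicate 1 the difference in Kcnh2 was -0.57 with an adjusted p of 0.272, without PRMT1-cKO replicate 2 it was -1.66, and without WT replicate 1 the adjusted p was 0.0590. The number of subunits called fell to 3 without WT replicate 1 and to 3 without WT replicate 2. Kcnj2, with 9 and 1 exon reads in PRMT1-cKO hearts and 14 and 12 in WT hearts, did not pass (log2 -1.62 ± 0.63, edgeR adjusted p 0.0567); leaving out PRMT1-cKO replicate 1 gave -3.67 with an adjusted p of 0.0156, and leaving out PRMT1-cKO replicate 2 gave -0.85 with 0.401. Kcnj8 had 26 and 14 in PRMT1-cKO hearts and 18 and 23 in WT hearts, and these overlapped (log2 -0.31 ± 0.41, edgeR adjusted p 0.600).

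**Figure D3:**
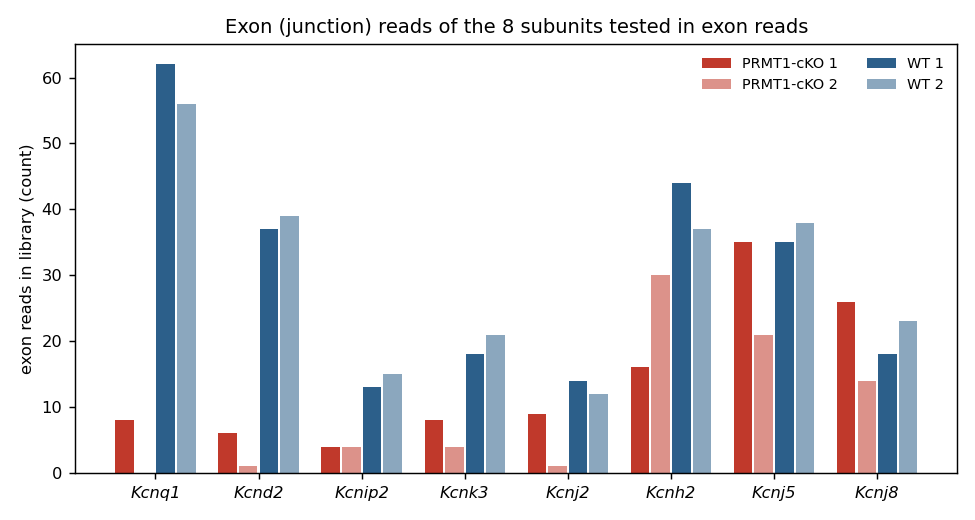
Exon reads, which are nearly all junction reads, are plotted as counts in each library for the 8 subunits with enough to test, PRMT1-cKO bars in red to the left of WT bars in blue. Kcnq1 has 8 and 0 reads in PRMT1-cKO hearts beside 62 and 56 in WT hearts, while the bars of Kcnj5 and Kcnj8 overlap; PRMT1-cKO libraries hold more exon reads in all (764806 and 671361) than WT libraries (624897 and 544891).

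Intron reads make up nearly all gene reads of these subunits, and their calls differed from those in gene reads for 3 subunits. Of 48 subunits tested, 19 passed in edgeR, 14 lower and 5 higher, a share of 39.6% against 21.8% of all genes, with a median log2 difference of -0.37. Kcnh2 did not pass in intron reads (log2 -0.55 ± 0.24, edgeR adjusted p 0.106). Kcnj8 and Kcnab1 passed here and not in gene reads. Kcnj8 had a log2 difference of -1.07 ± 0.37 in intron reads with an edgeR adjusted p of 0.0386, and did not pass without PRMT1-cKO replicate 2 (0.257), WT replicate 1 (0.175) or WT replicate 2 (0.111), or in DESeq2 (0.215). On the strand of Kcnab1 lies an overlapping gene, RP23-243H19.2, with 170 and 239 gene reads in PRMT1-cKO hearts and 275 and 283 in WT hearts. These are more than Kcnab1 had in every heart, and reads over both genes cannot be told apart. Kcnab1, an accessory subunit of Kcna4 and Kcna5 channels, had 59 and 94 reads in PRMT1-cKO hearts, against 45 and 36 in WT hearts, all outside exons (log2 0.74 ± 0.27, edgeR adjusted p 0.0444). It did not pass without PRMT1-cKO replicate 2 (0.261), WT replicate 1 (0.279) or WT replicate 2 (0.137), in DESeq2 (0.254) or with no read filter (0.0532), and in gene reads its adjusted p was 0.0577, or 0.0184 when PRMT1-cKO replicate 1 was left out.

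Whether spliced and other reads of a gene changed by the same amount was asked for the 8 subunits with both. None of the 8 passed in edgeR's exon against intron test, where 3.88% of 4196 genes did (1.95% higher and 1.93% lower in exon reads), and 2 had an unadjusted p under 0.05. For Kcnq1, the exon minus intron log2 difference was -1.85 (in edgeR, unadjusted p 0.00224 and adjusted p 0.0545). Without PRMT1-cKO replicate 1, which leaves the heart with 0 exon reads, its difference was -6.82 with an adjusted p of 4.94e-04, and without PRMT1-cKO replicate 2 it was -0.76 with an adjusted p of 0.883. For Kcnk3 the exon minus intron difference was -1.47 (edgeR unadjusted p 0.0244, adjusted p 0.265), and it moved with the heart left out: -2.38 without PRMT1-cKO replicate 1, -0.63 without PRMT1-cKO replicate 2, -2.07 without WT replicate 1 and -0.90 without WT replicate 2. Kcnd2 had an exon minus intron difference of -0.08, beside log2 differences of -3.66 in exon reads and -3.49 in intron reads. That difference rested on 1 heart, at -2.06 without PRMT1-cKO replicate 1 and 1.05 without PRMT1-cKO replicate 2, and no setting gave Kcnd2 a pass. Over all genes tested the median of this difference was 0.18.

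**Figure D4:**
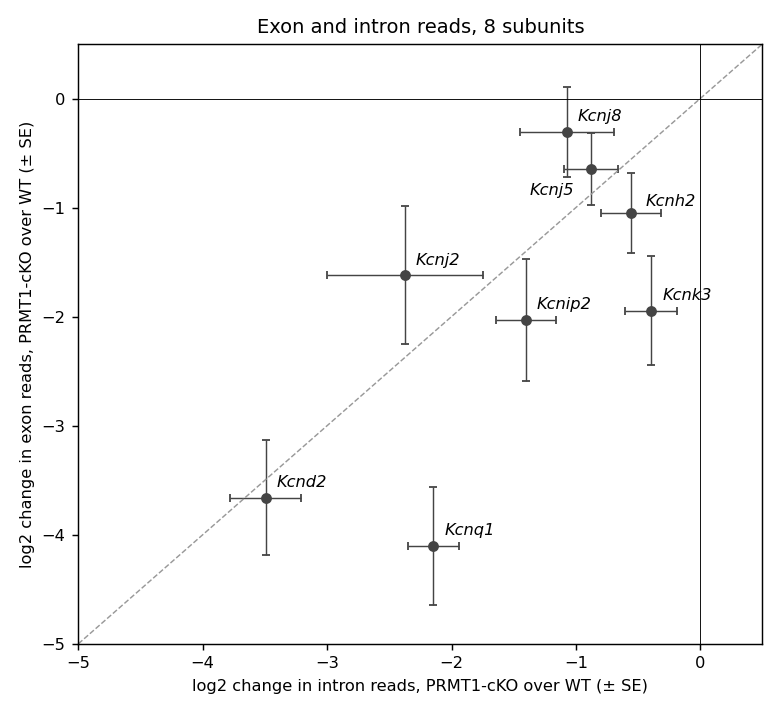
Log2 difference in exon reads is plotted against that in intron reads, PRMT1-cKO over WT, with standard errors, for the 8 subunits tested in both; the dashed line marks equal change. Kcnd2 lies on the line at about -3.5 in both, Kcnq1 and Kcnk3 lie below it and Kcnj2 and Kcnj8 above it, and none of the 8 passed the test of the difference.

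Gene reads per kb of gene span allow levels to be set side by side between genes. In PRMT1-cKO hearts Kcng2 had the densest cover of the 66 subunits at 4.50 CPM per kb (4.59 and 4.40 in the 2 hearts), against 0.639 (0.722 and 0.555) in WT hearts, where it stood at rank 3. Kcnip1 followed at 0.522 (0.606 and 0.439) in PRMT1-cKO hearts, against 0.574 (0.539 and 0.609) in WT hearts, and Kcnt2 at 0.359 (0.247 and 0.470), against 0.191 (0.184 and 0.197). Kcnip1 and Kcnt2 overlapped in PRMT1-cKO hearts and so did not differ beyond their spread, while Kcng2 stood clear of both. The densest subunits of WT hearts stood lower in this order. Kcnj3 stood at rank 11 in PRMT1-cKO hearts with 0.102 CPM per kb, against rank 1 in WT hearts with 1.26 (1.53 and 0.991). Kcnd2 stood at rank 15 with 0.0624 CPM per kb in PRMT1-cKO hearts, against rank 2 with 0.703 (0.743 and 0.662) in WT hearts. Kcnn2 stood at rank 18 in PRMT1-cKO hearts, against rank 8 in WT hearts. In WT hearts Kcnj3 lay above Kcnd2 in both hearts, and Kcnd2, Kcng2 and Kcnip1 overlapped with their neighbours. Since these reads are nearly all intronic, the densities describe reads over the gene body and not spliced message.

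Genes whose products work with the channels moved in both directions. Of 23 channel partners tested, 6 fell and 2 rose in gene reads (edgeR), where 11.2% of all genes tested fell and 11.5% rose, with a median log2 difference of -0.07. In exon reads 4 of 9 fell and 1 rose (edgeR), where 18.7% of all genes tested fell and 17.6% rose. Cav3, the muscle caveolin, rose in gene reads and fell in exon reads. It had 134 and 143 gene reads in PRMT1-cKO hearts, against 87 and 48 in WT hearts (log2 0.90 ± 0.23, edgeR adjusted p 0.00779, and 0.171 without WT replicate 2). Of these, 13 and 5 were exon reads in PRMT1-cKO hearts, against 52 and 31 in WT hearts (log2 -2.44 ± 0.43, edgeR adjusted p 3.55e-04). Gng2, a G protein gamma subunit, was the other that rose in gene reads, with 368 and 476 in PRMT1-cKO hearts, against 271 and 219 in WT hearts (log2 0.62 ± 0.19, edgeR adjusted p 0.0255). Its adjusted p was 0.356 without WT replicate 1, 0.215 without WT replicate 2 and 0.0741 in DESeq2. Besides Abcc9, Actn2, the Z-disc protein that binds several channels, fell (37.6 ± 5.53 CPM in PRMT1-cKO and 99.1 ± 25.7 CPM in WT, SD, n = 2 each; log2 -1.40 ± 0.24, edgeR adjusted p 2.68e-04). Rgs6 and Rgs4, which quicken the shutting of acetylcholine-activated channels, fell too. Rgs6 had a log2 difference of -1.30 ± 0.25 (edgeR adjusted p 6.65e-04, and 0.0749 without WT replicate 1), and Rgs4, with 10 and 9 gene reads in PRMT1-cKO hearts and 25 and 29 in WT hearts, of -1.67 ± 0.45 (edgeR adjusted p 0.00985, and 0.165 without WT replicate 2).

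Among regulators of cardiac channel genes, 6 of 19 tested fell and 0 rose in edgeR, against 11.2% and 11.5% of all genes tested, with a median log2 difference of -0.36. In exon reads 3 of 9 fell and 1 rose (edgeR), against 18.7% and 17.6%. Ppargc1a, the coactivator of mitochondrial genes, had 548 and 1202 gene reads in PRMT1-cKO hearts, against 5207 and 5821 in WT hearts (log2 -2.89 ± 0.32, edgeR adjusted p 1.92e-06). Irx4, a ventricular transcription factor, had 3 and 9 in PRMT1-cKO hearts, against 31 and 26 in WT hearts (log2 -2.40 ± 0.49, edgeR adjusted p 0.00119). Both PRMT1-cKO counts of Irx4 lay below the read filter, which it passed through WT hearts alone. Irx5, which shapes the gradient of Kcnd2 across the mouse ventricular wall, and Irx3, a factor of the conduction system, had too few reads to test. Esrrg fell (log2 -1.16 ± 0.25, edgeR adjusted p 0.00188, and 0.0779 without WT replicate 1), as did Hopx (log2 -0.87 ± 0.25, edgeR adjusted p 0.0154), which did not pass when PRMT1-cKO replicate 1 (0.0732) or WT replicate 1 (0.0764) was left out.

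RefSeq gave 92 promoter windows of 300 bases for 67 of the 92 genes. Their median GC content was 58.0%, with 9 CG dinucleotides, against 52.7% and 7 over all 32851 windows, and the 17 windows of 11 of the 14 subunits that fell had a median of 58.0% and 8. The TATA box letters TATAAA stood on either strand in 5.43% of subunit windows and in 13.6% of all windows, and in 0 of the 17. The letters AGATAA, a motif of the zinc finger factors Gata4 and Gata6, stood in 4.35% of subunit windows, in 11.2% of all windows and in 1 of the 17. AAGGTCA, the motif of the estrogen-related receptors, stood in 3.26% of subunit windows, in 4.72% of all windows and in 0 of the 17. CACGTG, an E-box, stood in 7.61% of subunit windows, in 7.15% of all windows and in 1 of the 17. None of the 4 windows printed above holds any of these motifs, and no motif of the 4 contains another.

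By the authors' deposited table, 16 subunits had a corrected p-value under 0.05. All 16 passed here with the same direction, and the 2 that passed only here were Kcnh2 and Kcnip3.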

How the data were processed

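Ribosomal RNA was removed from total cardiac RNA with a RiboMinus kit and libraries were made with a SOLiD total RNA kit, per the labels' protocols. The submitters' processing notes name GRCm38; the sources used here give no aligner, counting program or strand setting. The deposited counts of gene, exon and intron reads were used as the authors gave them. Deposited RPKM values were read but not tested. The authors' deposited p-values and signed fold score from an EDGE test were compared with the calls made here, and 40 per-sample value columns were not used. Starts are printed 1-based; 49 of the 92 genes have coordinates equal to GENCODE M21.

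The whole table was fitted with edgeR 4.0.16 in R 4.3.3 (TMM, filterByExpr, then glmQLFit and a two-sided glmQLFTest on genotype alone). The filter was at its defaults: a minimum count of 10, scaled to library size and needed in only 2 libraries, and 15 reads in total. A gene could therefore be kept through 1 group alone. The p-values were adjusted by Benjamini-Hochberg over all genes tested, with 0.05 as the threshold. Standard errors are the log2 difference divided by the square root of F. Exon against intron reads entered diffSpliceDGE as features of a gene, with Simes p-values. The code was tested on simulated counts. Hearts of one group differed beyond sampling noise (chi-square per gene of 24.3 between PRMT1-cKO hearts and 12.8 between WT hearts), so each was counted as 1 replicate. Alternatives were DESeq2 1.42.0, its size factors, other read filters, genes with an annotated exon only, leaving out each heart, and a replicate block. Named genes were all subunits past a threshold, the subunits with textbook roles in cardiac repolarisation, and up to 4 per partner list by size of change; Kcnip1, Kcnma1, Irx3, Irx5, Cav3 and Gng2 were named outside this rule with their values already seen. The values of 1 subunit that the rule would name are not reported here, though counts over subunits include it. The subunits and lists were chosen with earlier results of these data known.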

Additional observations from a re-analysis of the deposited data

How the results depend on the processing

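The count of subunits changed in gene reads was 18, and it lay between 16 and 18 with DESeq2 size factors, the DESeq2 test, no read filter, a stricter filter and library sizes from genes with an annotated exon, and between 13 and 20 when each heart was left out. In exon reads the count of 5 became 1 in DESeq2, 3 under the stricter filter, which left 5 subunits to test, and 3 to 4 when each heart was left out; with no filter it was 6. In intron reads the count of 19 was 15 in DESeq2 and 13 to 20 when each heart was left out. The exon against intron count of 0 became 1 (Kcnq1) under the stricter filter, and was 0 to 1 when each heart was left out. The cause of these moves was not tested beyond the smaller number of subunits left by the stricter filter. The share of all genes passing moved too, also when a heart was left out. In gene reads it was 22.7%, against 15.9% in DESeq2, 13.2% with no read filter and 26.1% under the stricter filter. In exon reads it was 36.2%, against 23.04%, 14.05% and 43.9% in the same order. In intron reads it was 21.8%, against 13.5% in DESeq2. A change in the count of subunits is therefore not by itself particular to them. Over the named genes, 360 alternative values kept direction and side of the threshold, 31 no longer passed, 9 newly passed and 4 reversed. Cav3 had a log2 difference of -2.44 in exon reads; leaving out each heart, the log2 difference ranged between -0.051 and 0.50 for Kcnd3, between -0.49 and 0.041 for Kcna4 and between -2.12 and 0.56 for Kcnc1. With 1 heart left out, the lone heart of its group is assumed to vary like the others.

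The labels number the hearts in both groups, but same-numbered hearts did not deviate together (correlation -0.12 over 13869 genes). With the replicate number as a block, 16 subunits passed in gene reads (Kcnh2 and Kcnt2 did not), 5 in exon reads, 17 in intron reads (Kcnab1, adjusted p 0.0592, and Kcnt2 did not) and 0 in exon against intron reads. A crossed pairing, chosen after seeing the data, gave 23, 6, 21 and 0 in the same order. Of all genes tested, 20.2, 33.3, 19.4 and 1.62% passed with the block, and 31.2, 37.9, 28.01 and 6.12% with the crossed pairing. With 2 hearts per group and 817 exon reads over the subunits, spliced RNA could be compared in 8 of 92 genes, and reads outside exons need not follow it.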
